A study of Mus musculus with 6 samples.

Results

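NF-kappaB is a family of dimeric transcription factors, and the transcripts of 10 genes that encode its subunits and inhibitors were examined in mouse aortic arches. The members were taken by gene name, and all 10 were among the 14298 genes listed. They are the subunit genes Nfkb1, Nfkb2, Rela, Relb and Rel, the inhibitor genes Nfkbia, Nfkbib and Nfkbie, the atypical inhibitor gene Bcl3, and Tnfaip3, which encodes the ubiquitin-editing enzyme A20. In resting cells the IkappaB proteins hold the dimers in the cytoplasm. Inflammatory signals activate IkappaB kinases, the inhibitor is degraded, and the dimers enter the nucleus, where they switch on adhesion molecules, cytokines and several of their own regulators. Because Nfkbia, Nfkbie, Tnfaip3, Bcl3, Nfkb1, Nfkb2, Rel and Relb are themselves known targets, their transcripts are often read as a gauge of NF-kappaB activity, whereas Rela is known for a steady transcript level and is regulated mainly as a protein. In the artery wall, NF-kappaB of endothelial cells, smooth muscle cells and macrophages is known for its part in atherosclerosis.

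PolyA RNA of the arch was sequenced in 3 control and 3 knockout libraries from adult C57/BL6 mice. Every animal lacked ApoE, carried RBPJflox/flox (loxP-flanked alleles of the gene for the Notch effector RBPJ), received tamoxifen for 1 week at 8 weeks of age and then ate a high-fat diet for 6 weeks. Knockout animals also carried Cdh5-CreERT, a tamoxifen-dependent Cre recombinase driven by the promoter of the endothelial cadherin gene, and control animals had no Cre, so its presence and the deletion cannot be told apart. The deletion is therefore directed at endothelial cells, while the RNA came from the whole arch. The series title names Jag1-RBPJ signalling of the endothelium in leukocyte recruitment, and the comparison made here asks how NF-kappaB pathway transcripts stood with and without the recombinase. Libraries are called by the numbers in the file (controls S591, S592 and S594, knockouts S595, S598 and S599). Nothing in the labels says whether the libraries of a group came from single or pooled animals, so p-values measure the spread between libraries. Levels are CPM (read counts scaled to a common library size), given per library or as mean ± SD with n = 3. A log2 fold change is the knockout mean minus the control mean of log2(CPM + 1), a scale that understates differences of low genes. Adjusted p-values come from limma with Benjamini-Hochberg adjustment over all 14298 genes.

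The libraries held 5904504 to 10072495 reads over the listed genes. Libraries of a group differed by a chi-square of 12.5 to 34.1 per degree of freedom, so no library was a copy of another. All 6 smooth muscle markers and all 8 endothelial markers looked for were listed. Rbpj itself stood at 189 ± 13.2 CPM in controls and 193 ± 21.7 in knockouts (log2 fold change 0.03, adjusted p = 0.923), a gene-level value of whole tissue that does not check a deletion in endothelial cells. The airway transcripts Scgb1a1 and Bpifa1, summed, ran from 1.95 to 7.06 CPM in the control and from 56.3 to 76.2 in the knockout libraries. Summed T cell and thymocyte markers were highest in the knockout libraries S598 (194 CPM) and S599 (87.0), against 24.8 to 38.7 in the other libraries.

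Most regulated members stood lower in the knockout arches while Rela and Nfkbib stood level. Nfkb1, also a known target, differed little (log2 fold change −0.15, with overlapping groups). The difference was widest for Bcl3, whose mean was 3.48-fold lower, followed by Nfkbie at 2.23-fold, Nfkb2 at 1.60-fold and Relb at 1.55-fold. In 6 of the 10 members (Nfkb2, Relb, Rel, Nfkbia, Nfkbie and Bcl3) every knockout library was below every control library, where 14.2% of all genes listed were separated in that direction, and 0 members were separated upward, as 11.3% of all genes were. By limma 0 of the 10 passed an adjusted p of 0.05, a threshold that 0.0210% of all genes passed. Of all genes 0 passed it on the lower side and 3 on the higher side. At an unadjusted p of 0.05, 7 members were lower (the same 6 and Tnfaip3) and 0 higher, against 12.0% and 8.04% of all genes. The edgeR quasi-likelihood test and limma-voom on the recovered reads also passed 0 members. Both passed 0 of the 14298 genes in either direction, so that count says nothing particular to the members. At an unadjusted p of 0.05, 7 were lower in each, against 12.1% and 12.4% of all genes. DESeq2 on the same reads had 6 lower at that threshold, against 10.4% of all genes tested. Nfkbia was not among them (adjusted p = 0.323 by DESeq2). At an adjusted p of 0.05 DESeq2 called Nfkb2, Relb, Nfkbie and Bcl3 lower, 4 of 10 where it called 4.56% of all genes tested lower. Limma with weights for each library called the same 4, where 5.06% of all genes were lower. Quantile normalisation, which turned the balance of all genes at an unadjusted p of 0.05 from 1710 lower against 1150 higher to 1430 lower and 1540 higher, left 7 members lower. The median log2 fold change was −0.55 over the members and −0.02 over all genes. By limma the count at an unadjusted p of 0.05 was smaller without control S594, the highest control for every member but Nfkb1. It was then 4, and the share of all genes fell as well, from 12.0% to 7.25%, with fewer libraries in the fit. The members' median was −0.43 there, and 0 members passed an adjusted p of 0.05, where 0 of all genes were lower and 0.0140% higher. Without knockout S595 the unadjusted count was 5, against 11.7% of all genes.

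**Figure D1:**
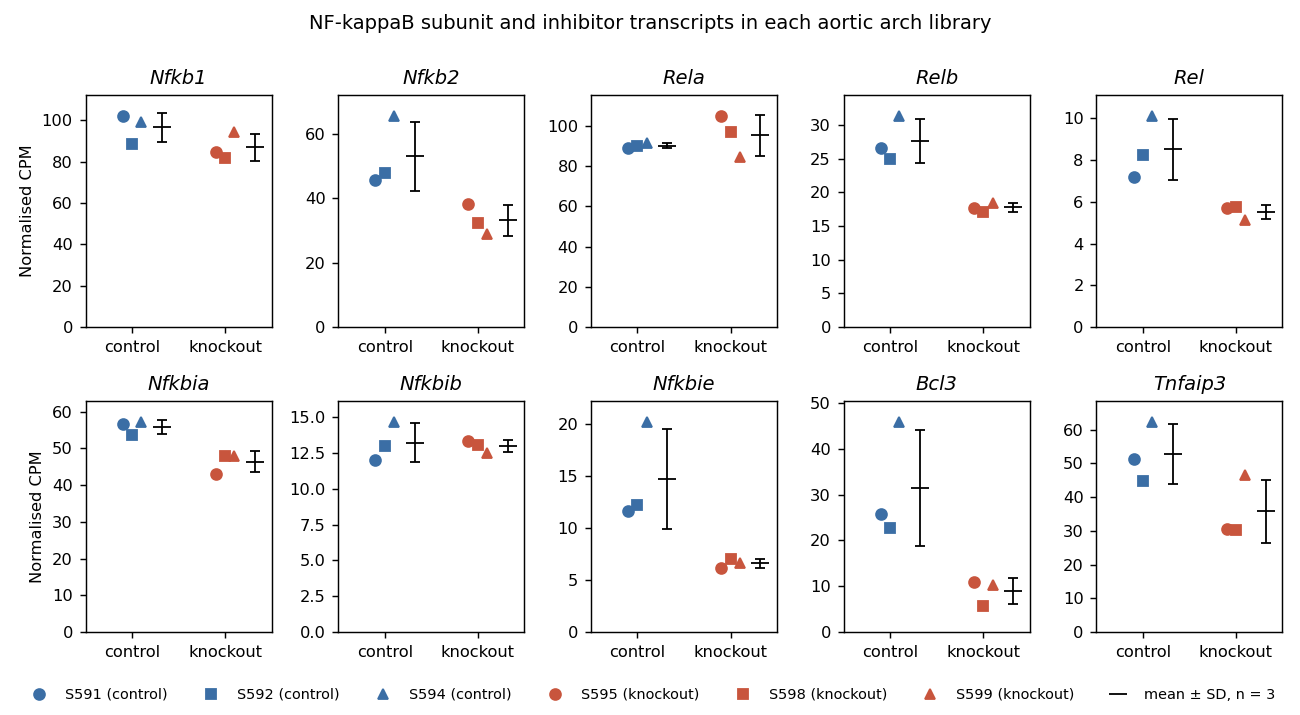
Each panel plots 1 transcript in normalised CPM on an axis that starts at 0, with 1 point per library (blue controls, red knockouts) and the mean ± SD of 3 libraries in black. All 3 knockout points lie below all 3 control points for Nfkb2, Relb, Rel, Nfkbia, Nfkbie and Bcl3, and the groups overlap for Nfkb1, Rela, Nfkbib and Tnfaip3.

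The promoter windows of 5 lower members and of Rela are shown because binding of NF-kappaB to kappaB sites near their own start is the textbook route by which several of these genes are self-induced. Each sequence is the 250 bases before a transcription start, read 5′ to 3′ on the gene's strand, from RefSeq on GRCm38.p6, and 8 of the 10 members matched that table (all but Nfkb1 and Relb). Capitals mark matches to the kappaB consensus, a motif of 10 bases searched on both strands, with overlapping matches merged. Where RefSeq gives several starts, the first listed is printed.
Nfkbia, chr12:55492648-55492897, reverse strand: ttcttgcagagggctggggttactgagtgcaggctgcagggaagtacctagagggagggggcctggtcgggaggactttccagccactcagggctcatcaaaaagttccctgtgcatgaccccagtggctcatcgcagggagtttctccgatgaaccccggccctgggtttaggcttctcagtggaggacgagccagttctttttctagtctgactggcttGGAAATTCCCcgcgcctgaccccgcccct
Nfkbie, chr17:45555450-45555699, forward strand: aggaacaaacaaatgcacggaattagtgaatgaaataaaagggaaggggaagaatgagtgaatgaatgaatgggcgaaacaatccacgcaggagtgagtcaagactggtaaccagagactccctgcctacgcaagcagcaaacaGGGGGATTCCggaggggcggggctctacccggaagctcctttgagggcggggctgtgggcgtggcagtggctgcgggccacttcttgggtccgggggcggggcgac
Nfkb2, chr19:46304487-46304736, forward strand: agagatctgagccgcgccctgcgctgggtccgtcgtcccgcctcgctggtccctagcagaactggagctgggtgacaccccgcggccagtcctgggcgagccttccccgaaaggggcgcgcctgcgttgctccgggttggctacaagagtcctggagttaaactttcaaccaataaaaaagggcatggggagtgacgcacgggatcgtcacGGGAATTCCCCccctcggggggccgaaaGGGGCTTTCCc
Rel, chr11:23770970-23771219, reverse strand: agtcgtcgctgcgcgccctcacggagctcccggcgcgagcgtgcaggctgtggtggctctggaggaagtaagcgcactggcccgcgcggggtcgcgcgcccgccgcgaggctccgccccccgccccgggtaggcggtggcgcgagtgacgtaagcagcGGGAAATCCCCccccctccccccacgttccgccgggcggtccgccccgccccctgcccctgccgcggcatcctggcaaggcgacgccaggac
Bcl3, chr7:19822756-19823005, reverse strand: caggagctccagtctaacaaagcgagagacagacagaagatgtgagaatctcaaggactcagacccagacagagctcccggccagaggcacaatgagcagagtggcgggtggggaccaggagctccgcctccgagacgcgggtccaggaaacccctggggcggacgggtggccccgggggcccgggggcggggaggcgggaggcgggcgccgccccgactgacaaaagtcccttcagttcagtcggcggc
Rela, chr19:5637291-5637540, forward strand: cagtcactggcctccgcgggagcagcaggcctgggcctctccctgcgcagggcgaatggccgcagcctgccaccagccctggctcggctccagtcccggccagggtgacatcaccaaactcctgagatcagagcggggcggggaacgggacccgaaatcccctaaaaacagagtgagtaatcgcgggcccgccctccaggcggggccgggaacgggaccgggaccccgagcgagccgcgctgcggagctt
The match of Nfkbia lies 29 to 20 bases before the start, that of Nfkbie 106 to 97 bases before it, and that of Rel 92 to 82 bases before it. Nfkb2 has matches 39 to 29 and 11 to 2 bases before the start printed. Over all starts, 7 of the 11 member windows, from 5 of the 8 genes (Nfkb2, Rel, Nfkbia, Nfkbie and Tnfaip3), held a match, against 7.25% of the 32851 windows of all genes. The windows of Bcl3, Rela and Nfkbib held none, which says only that these letters are not in those windows. The core motif bound by RBPJ, TGGGAA, on either strand, was in the windows of Nfkbib and Tnfaip3, 2 of the 11, and in 21.6% of all windows. It overlapped no kappaB match there.

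Among the subunits that carry a transactivation domain, Rela encodes p65, the main activating partner of the classical dimer. Rela stood at 89.3, 89.8 and 91.5 CPM in controls S591, S592 and S594, and at 105, 97.0 and 84.5 in knockouts S595, S598 and S599. The controls were nearly equal, and the knockout values lay on both sides of them. Its log2 fold change was 0.08 with a 95% interval of −0.17 to 0.32 (adjusted p = 0.730). Rel encodes c-Rel, best known from lymphocytes and myeloid cells. Rel stood at 7.20, 8.25 and 10.1 CPM in the controls and at 5.71, 5.74 and 5.11 in the knockouts, from 32 to 81 reads per library. Every knockout library was below every control, with means 1.54-fold apart (log2 fold change −0.54, adjusted p = 0.164). Relb encodes the activating partner of p52 in the alternative pathway. Relb stood at 26.6, 25.0 and 31.3 CPM in the controls and at 17.7, 17.1 and 18.5 in the knockouts. The knockout libraries had an SD of 0.685 CPM, and all were below the controls (log2 fold change −0.60, standard error 0.13, adjusted p = 0.107).

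Nfkb1 and Nfkb2 encode precursor proteins whose processing gives the DNA-binding subunits p50 and p52, and whose unprocessed forms can act as inhibitors. Nfkb1 stood at 102, 88.7 and 99.2 CPM in the controls and at 84.7, 81.9 and 94.3 in the knockouts. Its groups overlapped, since knockout S599 was above control S592 (log2 fold change −0.15, 95% interval −0.39 to 0.09, adjusted p = 0.457). Nfkb2 stood at 45.8, 47.8 and 65.3 CPM in the controls and at 38.1, 32.3 and 28.7 in the knockouts. The groups were apart, with control S594 well above the other controls, and the log2 fold change was −0.66 (95% interval −1.05 to −0.26, adjusted p = 0.121). The transcript of the precursor p100 thus stood lower by a wider margin than that of p105, a difference between members that was not tested.

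Of the classical inhibitors, Nfkbia encodes IkappaBalpha, which NF-kappaB resynthesises within its best known feedback loop. Nfkbia stood at 56.6, 53.7 and 57.3 CPM in the controls and at 43.1, 48.0 and 48.1 in the knockouts. The groups did not overlap but lay close, 1.20-fold apart in their means (log2 fold change −0.26, 95% interval −0.49 to −0.04, adjusted p = 0.191). Nfkbie encodes IkappaBepsilon, a slower inducible inhibitor. Nfkbie stood at 11.6, 12.3 and 20.3 CPM in the controls and at 6.16, 6.99 and 6.68 in the knockouts, from 40 to 163 reads per library. The knockouts were tightly grouped below the controls (log2 fold change −1.01, adjusted p = 0.111). Without control S594 the log2 fold change was −0.77. Nfkbib encodes IkappaBbeta, which is not known for strong induction by NF-kappaB. Nfkbib stood at 12.0, 12.9 and 14.7 CPM in the controls and at 13.3, 13.1 and 12.5 in the knockouts. All 3 knockout values lay inside the range of the controls, with a log2 fold change of −0.02 (95% interval −0.34 to 0.30, adjusted p = 0.947) whose sign turned under quantile normalisation (0.040) and without control S594 (0.052) or knockout S599 (0.0028).

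Bcl3 encodes a nuclear IkappaB protein that binds p50 and p52 dimers and can repress or activate their targets. Bcl3 stood at 25.7, 22.7 and 45.9 CPM in the controls and at 11.0, 5.74 and 10.3 in the knockouts, from 59 to 370 reads per library. Even the highest knockout, S595, was below the lowest control, S592. The log2 fold change of −1.67 (95% interval −2.40 to −0.94, adjusted p = 0.107) ran from −1.86 to −1.37 when any 1 library was left out, and with control S591 left out Bcl3 and Nfkbie passed the threshold (adjusted p = 0.0444 and 0.0458, where 3.29% of all genes were called lower). Tnfaip3 encodes A20, which removes activating ubiquitin chains upstream of the kinases. Tnfaip3 stood at 51.3, 44.7 and 62.4 CPM in the controls and at 30.7, 30.1 and 46.6 in the knockouts. Knockout S599 reached the level of control S592, so the groups overlapped, with a log2 fold change of −0.56 (95% interval −1.02 to −0.10, adjusted p = 0.179).

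**Figure D2:**
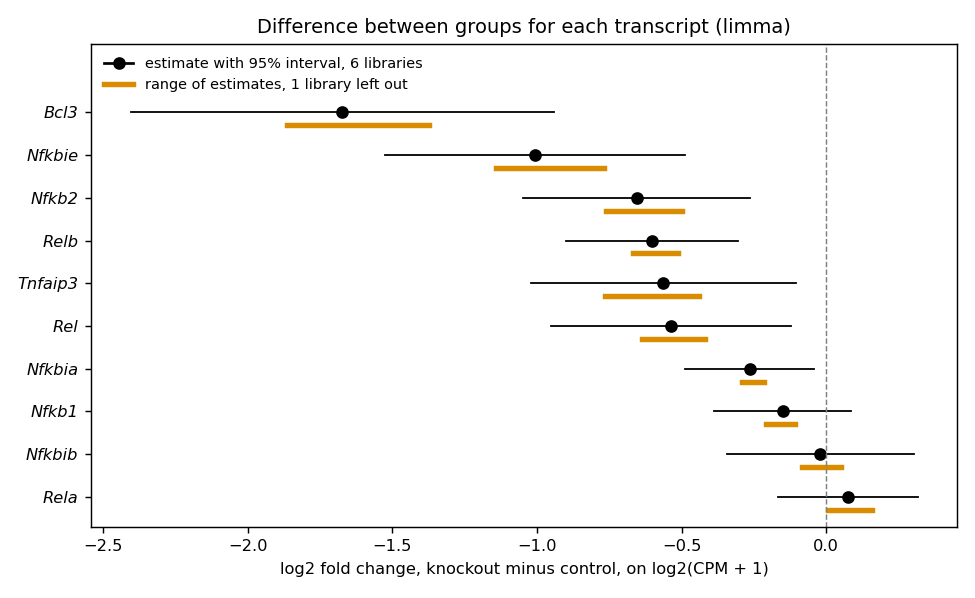
The horizontal axis gives the log2 fold change of each transcript (knockout minus control on log2(CPM + 1), limma), with its 95% interval in black and, in orange, the range of estimates when 1 library was left out. Bcl3 is farthest to the left at −1.67, and the intervals of Nfkb1, Nfkbib and Rela include 0.

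The self-induced genes Nfkbia, Relb and Bcl3 were set against Rela within each library. The ratio cancels nearly all of the scaling between libraries, and because transcript length was not taken into account it is read only between libraries. The log2 ratio of Bcl3 to Rela was −1.76, −1.94 and −0.98 in the controls and −3.14, −3.86 and −2.92 in the knockouts, a difference of −1.75. The log2 ratio of Relb to Rela was −1.71, −1.80 and −1.52 in the controls and −2.50, −2.44 and −2.13 in the knockouts, a difference of −0.68. For Nfkbia to Rela it was −0.65, −0.73 and −0.67 in the controls and −1.26, −1.002 and −0.80 in the knockouts, a difference of −0.34. For each of the 3 ratios every knockout library was below every control library. The exact two-sided permutation p was 0.1 for each (0.1 after Benjamini-Hochberg adjustment over the 3 ratios), the smallest that 3 against 3 libraries allow, so the design cannot reach 0.05. Without control S594 the difference for Bcl3 was −1.46, and without knockout S595 that for Nfkbia was −0.22.

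**Figure D3:**
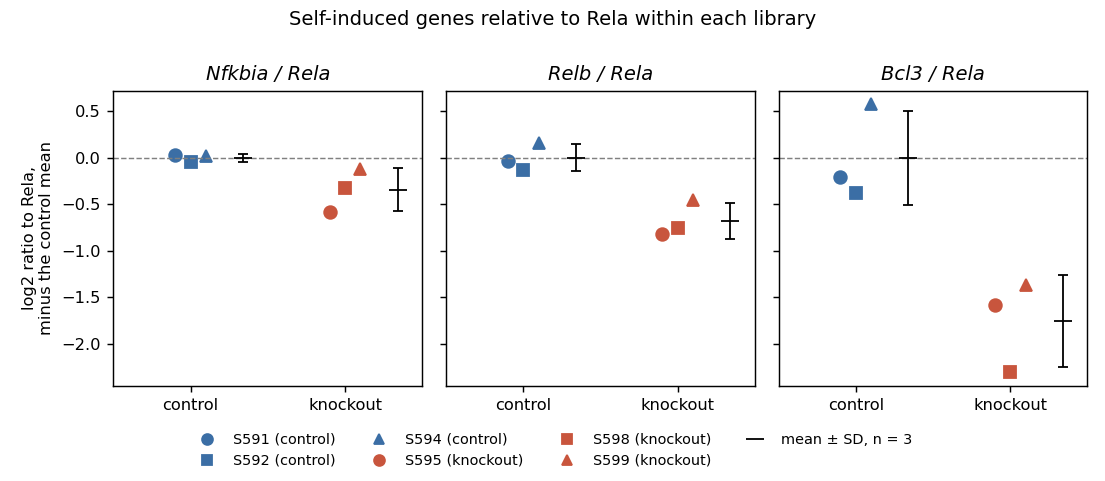
Each panel plots the log2 ratio of 1 gene to Rela in every library, with the mean of the controls set to 0 and the mean ± SD of 3 libraries in black. The knockout means lie 0.34 below the controls for Nfkbia, 0.68 below for Relb and 1.75 below for Bcl3 on the log2 scale, and knockout S599 is nearest the controls in each panel.

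Other genes of the pathway were read by role, and by limma, edgeR and limma-voom 0 of them passed an adjusted p of 0.05 over all genes. Of all 14298 genes, limma called 0 lower and 3 higher there, and edgeR and limma-voom called 0 in either direction. DESeq2, limma with weights for each library, and limma without control S591 did call some of the pathway genes lower, as given below for each role. Of the other nuclear IkappaB genes, Nfkbid stood at 2.75, 3.15 and 3.78 CPM in the controls and at 1.14, 1.88 and 0.865 in the knockouts (log2 fold change −0.90, adjusted p = 0.127). Its values rest on only 5 to 30 reads per library. Nfkbiz, a coactivator of secondary response genes, overlapped between groups, at 70.4 ± 15.7 and 59.1 ± 22.7 CPM (adjusted p = 0.597). Of the 5 IkappaB kinase genes (Chuk, Ikbkb, Ikbkg, Ikbke and Tbk1), 0 were lower at an unadjusted p of 0.05 by limma, edgeR, limma-voom or DESeq2. Of all genes 12.0%, 12.1%, 12.4% and 10.4% were, so a count of 0 in so short a list says little. The groups overlapped for all 5, where 14.2% of all genes were separated downward and 11.3% upward. With library weights 2 of the 5 were lower at that threshold, where 15.7% of all genes were, and without control S594 1 was, where 7.25% were. Their median log2 fold change was −0.19. Ikbkg, the regulatory subunit NEMO, stood at 77.0 ± 9.44 and 66.2 ± 5.11 CPM, and the catalytic subunit gene Ikbkb at 95.1 ± 7.32 and 83.2 ± 7.96 (adjusted p = 0.366 and 0.369).

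Among 20 adaptors, ubiquitin ligases and kinases upstream of the IkappaB kinases, at an unadjusted p of 0.05, 9 lay lower and 1 higher (12.0% and 8.04% of all genes), and the median log2 fold change was −0.18. At an adjusted p of 0.05, DESeq2 called 1 of them (Myd88) lower, limma with library weights 3 (Traf1, Myd88 and Tradd), and limma without control S591 1 (Traf1), against 4.56%, 5.06% and 3.29% of all genes. Myd88, the adaptor of Toll-like and interleukin-1 receptors, stood at 56.0 ± 10.02 CPM in controls and 34.7 ± 8.11 in knockouts (log2 fold change −0.68, adjusted p = 0.129). Tradd, the adaptor of the tumour necrosis factor receptor, stood at 12.1 ± 0.735 and 8.19 ± 0.649 (−0.51, adjusted p = 0.133). Without control S594, 5 were lower at an unadjusted p of 0.05, against 7.25% of all genes, and without knockouts S598 and S599 2 were, against 6.33%. Of 11 partners of A20 and other brakes, 0 passed an unadjusted p of 0.05 in either direction by limma, edgeR, limma-voom or DESeq2. By limma 12.0% of all genes were lower and 8.04% higher at that threshold. The median log2 fold change of the 11 was 0.05. In limma 1 was lower at that threshold with library weights (15.7% of all genes) and 1 without control S591 (13.5%), and 1 was higher without knockout S595 (8.51%). N4bp1 stood at 60.1 ± 6.52 and 49.4 ± 5.69 CPM, and the deubiquitinase gene Cyld at 68.2 ± 7.72 and 80.96 ± 10.2 (adjusted p = 0.277 and 0.353).

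Of 5 receptor genes of the alternative pathway that were listed, 2 were lower at an unadjusted p of 0.05, against 12.0% of all genes, and 1 without control S594, against 7.25%. Tnfrsf1b, the second receptor of tumour necrosis factor, stood at 135 ± 42.2 CPM in controls and 62.5 ± 21.1 in knockouts (log2 fold change −1.11, adjusted p = 0.127), and it was called lower by DESeq2, with library weights and without control S591. The lymphotoxin receptor gene Ltbr stood at 69.1 ± 9.98 and 50.1 ± 8.92 (−0.46, adjusted p = 0.171). Of 19 target genes outside the pathway, at an unadjusted p of 0.05, 12 lay lower and 0 higher, against 12.0% and 8.04% of all genes, and the median was −0.80. DESeq2 and limma with library weights called the same 7 lower at an adjusted p of 0.05, and limma without control S591 called 5, against 4.56%, 5.06% and 3.29% of all genes. Without control S594, 8 were lower at an unadjusted p of 0.05 (7.25% of all genes), and the median was −0.54. The targets with the smallest p were the chemokine gene Ccl2 (log2 fold change −2.02, adjusted p = 0.0644) and the adhesion molecule gene Icam1 (−0.93, adjusted p = 0.107). The target list was chosen with its direction in these libraries known and is no independent evidence of it.

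**Figure D4:**
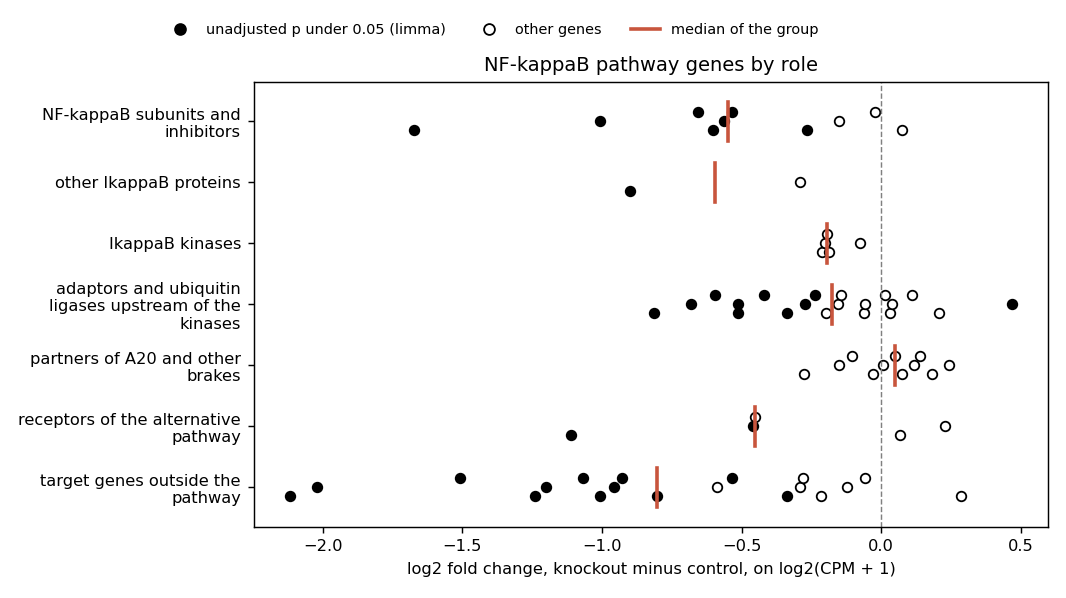
Each point is the log2 fold change of 1 gene (knockout minus control on log2(CPM + 1)), in rows by role, filled where limma's unadjusted p was under 0.05, with the median of each row in red. The medians run from −0.80 for target genes to 0.05 for partners of A20, and the kinases lie between −0.21 and −0.077.

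The libraries of a group were not alike. Control S594 was the highest control for 9 of the 10 members, and the highest of all 6 libraries for 8. In the same library the 12 macrophage markers summed to 9352 CPM, against 5626 and 7519 in S591 and S592, and the 4 neutrophil markers listed to 105 CPM, against 36.1 and 39.6. In the knockouts the macrophage markers summed to 3053 CPM in S595, 2395 in S598 and 5637 in S599, and neutrophil markers ranged from 18.4 to 29.9. Of the neutrophil sums, Csf3r alone gave 23.7, 28.4 and 54.2 CPM in the controls and 15.4, 12.1 and 22.4 in the knockouts. S100a8, S100a9 and Cxcr2 rested on 3 to 41 reads per knockout library. All 12 macrophage markers had negative log2 fold changes with a median of −1.10. By limma 12 were lower at an unadjusted p of 0.05 (12.0% of all genes) and 0 at an adjusted p of 0.05 (0 of all genes). For 10, every knockout library was below every control library (14.2% of all genes). DESeq2 and limma with library weights each called 10 lower at an adjusted p of 0.05, against 4.56% and 5.06% of all genes. The lysozyme gene Lyz2, which makes up most of the sum, stood at 3765 to 6470 CPM in the controls and 1559 to 4120 in the knockouts. Without Lyz2 the other 11 macrophage markers summed to 1861, 2538 and 2882 CPM in the controls and to 1111, 836 and 1517 in the knockouts, with no overlap between the groups. Both cell types use the members of this family, and the part of macrophage and neutrophil transcripts in the members' values was not tested. In bulk RNA, fewer cells of a type and less RNA per cell cannot be told apart. S599, the knockout with the highest macrophage sum, was also the knockout with the highest Nfkb1, Relb, Nfkbia and Tnfaip3 and the lowest Nfkb2, Rela, Rel and Nfkbib.

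Lymphocytes are a known source of Rel and Nfkb2. The summed T cell and thymocyte markers given above were highest in knockouts S598 and S599 and lowest in knockout S595. The 3 B cell markers listed summed to 32.6 to 44.0 CPM in the controls and 18.1 to 33.0 in the knockouts, with knockout S599 just above control S591. The part of lymphocyte transcripts in the members' values was not tested. With S598 and S599 left out, S595 is the 1 knockout library and is assumed to vary like the controls. Relb, Nfkbie, Bcl3 and Tnfaip3 were then lower at an unadjusted p of 0.05, 4 of 10 against 6.33% of all genes, and the members' median was −0.47. Summed endothelial markers ran from 1041 to 1119 CPM in the controls and from 839 to 1292 in the knockouts, with 4 of 8 log2 fold changes negative. Summed smooth muscle markers ran from 11914 to 20719 CPM in the controls, lowest in S594, and from 20809 to 28888 in the knockouts. All 6 stood higher on average, at a median log2 fold change of 0.64. By limma 3 were higher at an unadjusted p of 0.05 (8.04% of all genes) and 0 at an adjusted p of 0.05 (0.0210% of all genes passed). Summed fibroblast markers ran from 5673 to 8586 CPM in the controls and from 4027 to 5113 in the knockouts. By limma 2 of 6 were lower at an unadjusted p of 0.05, against 12.0% of all genes. The part of these cell types in the members' values was not tested.

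**Figure D5:**
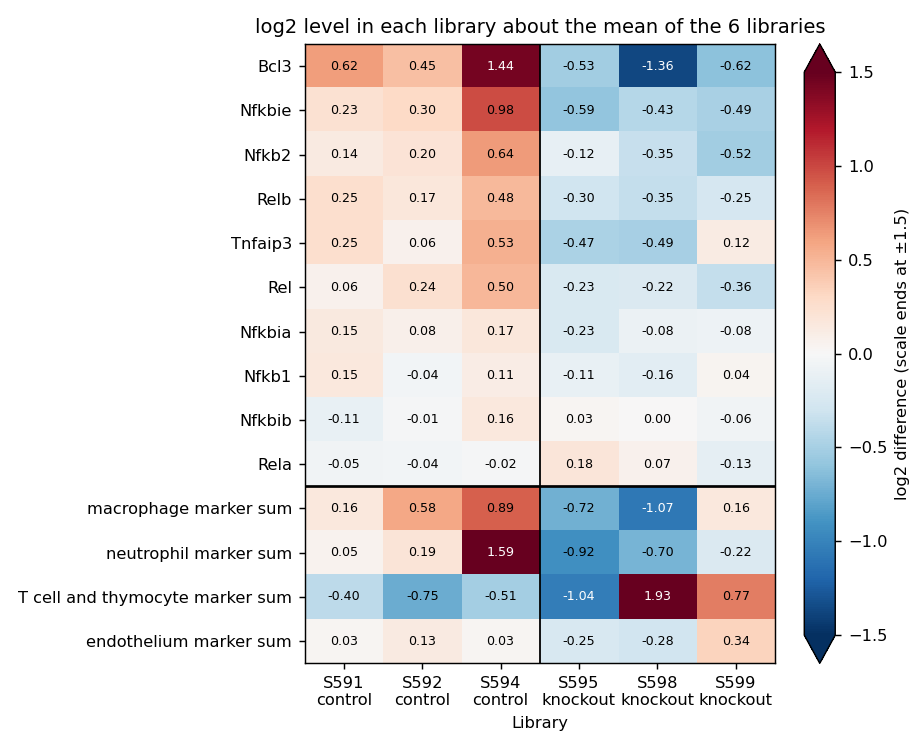
Colours and numbers give the log2 level in each library about its mean over the 6 libraries, for the 10 transcripts (top, on log2(CPM + 1)) and for summed markers of 4 cell types (bottom, on log2 CPM, with colour ending at ±1.5). Control S594 is highest for Bcl3 (1.44) and neutrophil markers (1.59), and the macrophage row is mostly the level of Lyz2.

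The members were also compared with each other over the 6 libraries, by the root mean square difference of their profiles about their own means (log2 scale, a description). The closest pair was Nfkb1 and Nfkbia (0.09), followed by Rela and Nfkbib, Relb and Rel (0.11 each), and Nfkb2 and Rel (0.12). Rela and Bcl3 were farthest apart (0.97). The measure is small for any pair of profiles that vary little, so a close pair need not rise and fall together. Rela, for example, was highest in S595 and Nfkbib in S594. By the same measure among 11397 genes of at least 5 CPM on average outside all lists, the profiles nearest Nfkbia were those of Secisbp2 (0.03), Crcp and Zfp874a (0.04 each). Those nearest Rel were Uxs1 (0.04), Smim3 and Dennd4b (0.05 each).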

How the data were processed

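PolyA RNA libraries were made with the TruSeq v2 kit, per the labels' protocols. That kit does not mark strand, so genes overlapping on opposite strands share reads. Per the submitters' processing notes, the build was NCBIM37 and the tools were Bowtie 0.12.7, RSEM 1.16, cutadapt 1.6.1, CASAVA 1.8, edgeR and limma, with no roles. The sources used here name no annotation. As deposited, the table holds a normalised signal, 1 value per gene and library. From the values, it is (reads + 0.5) in CPM after TMM scaling, and 100% of values gave whole reads at a tolerance of 0.01. Columns were assigned to groups by name; they show a library number but not which sample. Symbols came from Ensembl identifiers (13828 of 14298 matched).

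The test was limma 3.58.1 (R 4.3.3), run over all genes on log2(value + 1) with an intensity-dependent prior variance, all 6 libraries and genotype alone, Benjamini-Hochberg adjusted, two-sided, threshold 0.05. The filter (at least 1 CPM in at least 3 libraries) removed 0 genes. Ratios used an exact permutation test. Alternatives were pseudocounts, filters, scalings, variance models, array weights, edgeR 4.0.16 and DESeq2 1.42.0 on recovered reads, limma-voom, and libraries left out. Scripts were tested on simulated counts. Members and lists were chosen with earlier results of these data known. Named were all members, Rbpj, the 2 smallest p per pathway list, and the 3 nearest profiles of Nfkbia and Rel. Lyz2, Csf3r, S100a8, S100a9, Cxcr2, Scgb1a1, Bpifa1 and the upstream genes Map3k14, Traf3, Traf1 and Traf5 fall outside that rule and were named after their values were seen. Counting error is set by the reads given, and reads are not independent molecules.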

Additional observations from a re-analysis of the deposited data

How the results depend on the processing

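By limma 0 members passed an adjusted p of 0.05 (0 of all genes lower, 0.0210% higher), and with array weights 4 did (5.06% of all genes lower). DESeq2 passed the same 4 (Nfkb2, Relb, Nfkbie and Bcl3), where 4.56% of all genes tested were lower. With 1 library left out the number ran from 0 to 2, and 2 was reached without control S591 (3.29% of all genes lower). The cause of these differences was not tested. Array weights were lowest for S591 (0.570). By limma 7 members were lower at an unadjusted p of 0.05, against 12.0% of all genes. With 1 library left out the number ran from 4 (without control S594, 7.25% of all genes) to 7 (without control S592, 9.41%), and fewer libraries enter these fits. By DESeq2 6 were lower (10.4% of all genes tested), and Nfkbia was not among them. Without knockouts S598 and S599, which leaves 1 knockout library, the members' median log2 fold change was −0.47. The sign of Nfkbib turned under quantile normalisation (0.040), without S598 and S599 (0.016) and in fits without 1 library (−0.083 to 0.052). The other 9 members kept their direction under the 15 of 19 alternatives that change an estimate (the filters, the variance model without a trend and the threshold of 0.1 cannot), and the 3 ratios to Rela kept theirs under the pseudocounts of 0.1 and 0.5 and every omission of libraries. No paired analysis was possible because the columns carry library numbers and not the replicate numbers of the labels. Rel rests on 32 to 81 reads per library and is the least precisely counted member.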

Other observations

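The 4 upstream genes described next lie outside the rule for named genes and were picked after their values were seen, for their place beside Nfkb2 and Relb. Map3k14, the kinase that starts the alternative pathway, read 14.1, 13.2 and 20.01 CPM in the controls and 9.21, 11.0 and 9.67 in the knockouts. Traf3, which marks that kinase for degradation, stood at 60.7 ± 2.34 and 51.4 ± 1.18 CPM, with the groups apart. Traf1, a signalling adaptor that is itself an NF-kappaB target, read 6.66, 11.2 and 13.8 CPM in the controls and 5.55, 4.77 and 5.74 in the knockouts. Traf5 was the 1 upstream gene on the higher side at an unadjusted p of 0.05, at 17.3 ± 1.79 and 24.4 ± 2.85 CPM (n = 3 each). By limma the adjusted p-values of Map3k14, Traf3, Traf1 and Traf5 were 0.155, 0.202, 0.156 and 0.144, so none passed the threshold there. Traf1 passed it in limma with array weights and without control S591.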
